A study of Mus musculus with 195 samples.

Results

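The 10 naive pluripotency transcription factors Nanog, Zfp42, Klf2, Klf4, Klf5, Esrrb, Tfcp2l1, Tbx3, Nr0b1 and Prdm14 were followed as a group through single mouse embryonic stem cells and neural stem cells. They were taken by symbol, and all 10 of 10 were found among the 19736 genes of the table of genes. The measurement was BATSeq, which sequences the polyadenylated 3′ end of each transcript in a single cell and counts molecules by a molecular barcode, so that each molecule is a count of 1 at 1 polyadenylation site. The populations were ESC-2i, ESC-FCS and NSC, with 48 cells each, and a further 48 ESC-FCS control cells, 1 pool of 48 ESC-FCS cells and 2 pools of 48 ESC-2i cells served as a check. The cells used were 33 ESC-2i, 33 ESC-FCS and 41 NSC cells of the table of genes, and 42 control cells with at least 1000 molecules on genes.

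All embryonic stem cells came from 1 line, 46C, which carries a GFP reporter in the Sox1 gene and descends from E14tg2a. ESC-2i cells were kept in serum-free medium with the MEK inhibitor PD0325901 (1 µM), the GSK3 inhibitor CHIR99021 (3 µM) and the cytokine LIF (10 ng/ml). ESC-FCS cells, control cells and their pool were kept in 10% FBS with LIF (10 ng/ml) and no inhibitor. NSC cells were neural progenitors derived from embryonic stem cells. They were kept in N2 and B27 medium with the growth factors EGF and bFGF (10 ng/ml) and without LIF. Every population was sorted for small cells in G1. The labels name no separate cultures, so each population stood for 1 sample. No p-value was therefore made between populations, and all intervals cover counting error only.

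Naive pluripotency is the state of the epiblast before implantation, and embryonic stem cells hold it through a small network of transcription factors that activate one another. LIF acts through Stat3 on factors such as Klf4 and Tfcp2l1, GSK3 inhibition relieves repression of Esrrb by Tcf7l1, and MEK inhibition removes a signal that drives cells out of the state. Serum with LIF sustains self-renewal too, but its cultures are known for cells that differ in factors such as Nanog and Zfp42.

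The molecules of most factors ended at a single site. The most used site, joined with sites within 25 nt, held between 94.6% and 99.4% of the molecules of Nanog, Klf2, Klf5, Esrrb, Tfcp2l1 and Nr0b1 over all libraries used. It held 84.8% for Tbx3, 78.5% for Klf4, 76.6% for Prdm14 and 53.6% for Zfp42. The sequences at these most used sites are shown, except for Prdm14. The levels below are not counts at these sites alone but sums over all sites of a gene without antisense sites. Each sequence is the 30 bases that end at the deposited position with the most molecules over all libraries used. They run 5′ to 3′ on the strand of the gene and were read from GENCODE M21 transcripts on GRCm38. Capitals mark the last AATAAA or ATTAAA, the hexamers that are the usual polyadenylation signal.
Nanog, chr6:122714600-122714629, plus strand: gtttaaacaaAATAAAacactaattttacc
Esrrb, chr12:86521590-86521619, plus strand: atgtatctgaaatctAATAAAtaaggaaag
Tfcp2l1, chr1:118685128-118685157, plus strand: gctgggtcagaatgcaAATAAAaccatttg
Tbx3, chr5:119683972-119684001, plus strand: aagataatAATAAAgaggaaacacgactat
Klf2, chr8:72321316-72321345, plus strand: cttttttttaATTAAAgttttggatctttg
Klf4, chr4:55527145-55527174, minus strand: gttttaAATAAAcctataatattttatctg
Klf5, chr14:99314996-99315025, plus strand: aacttttttttttttgaaAATAAAaagtgc
Nr0b1, chrX:86195912-86195941, plus strand: taacttttAATAAAatttaaggtactaacc
Zfp42, chr8:43295068-43295097, minus strand: atgtttcaaaataaaaggaAATAAAacact

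The windows of Klf2 and Tbx3 lie in the terminal exon by the deposited class, 311 nt and 560 nt before the nearest annotated end, and the others end at or near an annotated end. The most used Prdm14 site, at position 13113429 of chromosome 1, is 28 nt past the annotated end, where no sequence was used here. Of 16 windows at sites of the factors with at least 10 molecules, 11 held AATAAA and 2 more held ATTAAA, searched on the strand of the gene. Among 6680 sites of all genes with at least 10 molecules in ESC-2i and ESC-FCS cells, 65.3% held AATAAA and a further 15.1% held ATTAAA alone. The factor sites were joined within 25 nt and counted over all libraries used, while the sites of all genes were not joined. These shares are therefore not matched.

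The depth behind the levels was 368363 molecules on genes in ESC-2i cells, 226684 in ESC-FCS cells, 151877 in NSC cells and 223055 in control cells, with medians per cell of 10864, 6375, 3282 and 4723.5. Pools held between 179155 and 494799 molecules. Levels are given as molecules per 10000 molecules on genes. Since a transcript is counted at its end once, levels are not scaled by its length. Whether transcripts of different genes are captured and kept alike was not tested. Embryonic stem cell markers were present in the embryonic stem cell libraries, with a sum of 13.1 to 18.6 in ESC-2i and 19.5 to 29.4 in ESC-FCS libraries. Pou5f1, the gene of Oct4, gave only 19 molecules in ESC-2i and 4 in ESC-FCS cells. Of the 8 markers NSC libraries held only Sox2, while their neural marker sum was 52.3 to 57.7 molecules per 10000, against 0.830 to 5.05 in embryonic stem cell libraries. Vim, the only neural marker with at least 20 molecules in ESC-2i and ESC-FCS cells together, was 2.02-fold (1.17 to 3.63) higher in ESC-2i. The 24 cell barcodes were shared by all populations of cells, and 48 pairs of batch and cell barcode were shared by ESC-2i and control cells. Spike-in (ERCC) molecules made up 7.87% of molecules in ESC-2i cells, 3.97% in ESC-FCS cells and 1.47% in control cells.

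Together the 10 factors made up 32.8 molecules per 10000 in ESC-2i cells (95% interval 31.0 to 34.7, 1208 molecules) and 20.8 in ESC-FCS cells (19.0 to 22.8, 472 molecules). Per cell, their sum ran from 16.5 through a median of 33.2 to 50.2 in ESC-2i and from 0 through 21.5 to 46.8 in ESC-FCS. The fold was 1.57 (1.41 to 1.76), beside a median fold of 1.05 over the 5007 genes with at least 20 molecules. In control cells the sum was 30.6 (28.3 to 33.0), so that ESC-2i over control cells gave only 1.07 (0.976 to 1.18). Between pools the fold of the sum was 1.21 (1.11 to 1.32), below the median of 1.296 over all genes there. In pools, fewer cells with a transcript and less of it per cell cannot be told apart. In the 4 ESC-2i libraries the sum was 29.9 to 39.8 and in the 5 ESC-FCS libraries 20.7 to 34.6, and these ranges overlap. The summed level did not separate the media over these libraries, while single factors did.

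The order of the levels was not the same in both media. In ESC-2i cells Tfcp2l1 (8.63, interval 7.71 to 9.64) and Esrrb (8.14, 7.25 to 9.12) came first, with overlapping intervals, followed by Nanog (4.67) and Klf2 (4.29), again overlapping. Klf5, Zfp42 and Tbx3 lay between 1.57 and 1.71, and Nr0b1, Prdm14 and Klf4 between 0.543 and 0.923, each within the interval of its neighbour. In ESC-FCS cells Esrrb alone led (6.22, 5.24 to 7.34), above Klf2 (4.19), Nanog (3.00) and Tfcp2l1 (2.74), whose intervals overlapped from one to the next. Tbx3, Prdm14 and Klf4 came last, at 0.265 to 0.309. In control cells Klf5 stood first, at 7.35 (6.27 to 8.57), above Esrrb at 5.34 (4.42 to 6.38), their intervals overlapping.

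**Figure D1:**
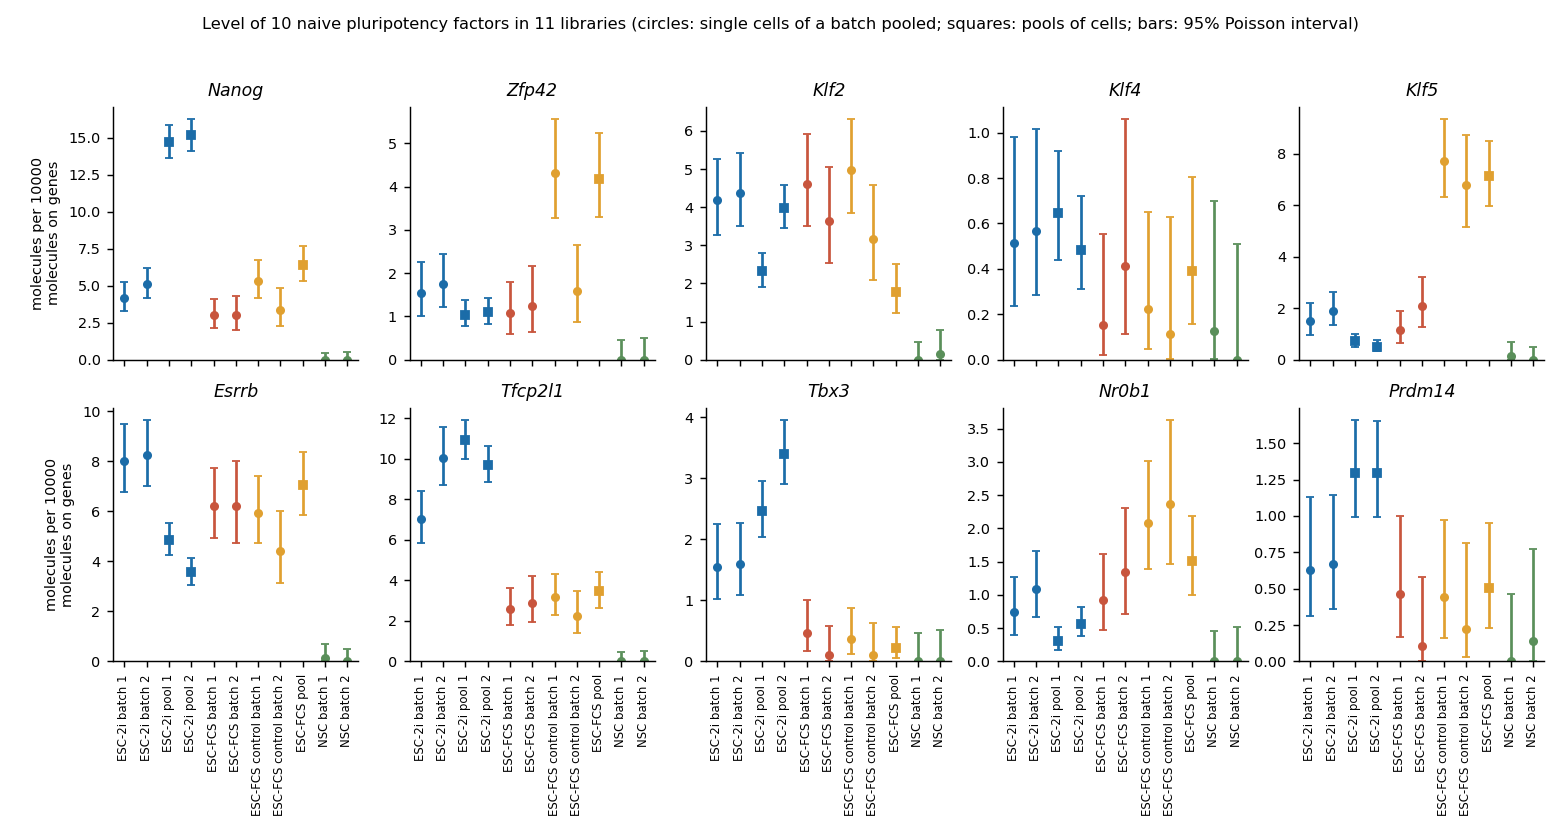
Level of each factor in 11 libraries, in molecules per 10000 molecules on genes, with 95% Poisson intervals. Circles are the single cells of a batch summed, squares are pools of 48 cells, blue is ESC-2i, red ESC-FCS, yellow the ESC-FCS control cells and pool, and green NSC. The blue points of Tfcp2l1, Tbx3, Klf4 and Prdm14 lie above all red and yellow points, though between cells Klf4 turned to 0.993-fold on spike-in molecules, while those of Klf5 lie far below the yellow ones.

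Tfcp2l1, Tbx3, Klf4 and Prdm14 were at least 2-fold higher in ESC-2i cells than in ESC-FCS cells, 4 of 10 factors beside 14.5% of all genes tested. Of these, Tbx3, Klf4 and Prdm14 reached the limit of 20 molecules only through ESC-2i cells (58, 20 and 24 molecules, against 7, 6 and 7). None of the 10 was at least 2-fold lower, beside 8.17%. The same 4 were higher in all 4 ESC-2i libraries than in all 5 ESC-FCS libraries, a pattern met by 6.22% of 9728 genes, and no factor was lower in all (3.20% of genes). These values are relative to the molecules on genes. When molecules were divided by spike-in molecules instead, the median of all genes moved by -1.05 on the log2 scale, the summed fold became 0.762, and Nanog, Zfp42, Klf2, Klf4, Klf5 and Esrrb turned to lower in ESC-2i cells. Relative to the median of all genes, which this scaling moves by the same factor as each gene, the sum was 1.51-fold higher and Tfcp2l1, Tbx3 and Prdm14 were at least 2-fold higher.

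Tfcp2l1, a grainyhead-like factor directly downstream of LIF and Stat3, separated the media most evenly. Its level was 7.05 and 10.1 in the ESC-2i batches and 10.9 and 9.72 in the ESC-2i pools. It was 2.61 and 2.90 in the ESC-FCS batches, 3.20 and 2.26 in the control batches and 3.46 in the ESC-FCS pool. Each ESC-2i value was thus more than 2 times the highest serum value. The fold was 3.16 (2.40 to 4.21) against ESC-FCS cells, 3.06 (2.33 to 4.07) against control cells and 2.98 (2.31 to 3.92) between pools, where the first and second comparisons share the ESC-2i cells. Per cell it ran from 0 through a median of 8.84 to 17.7 in ESC-2i, and from 0 through 1.86 to 12.1 in ESC-FCS. A single ESC-2i cell lacked a molecule, against 12 of 33 ESC-FCS cells.

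Tbx3, a T-box factor that sustains self-renewal downstream of LIF, had the highest fold of the 10 between cells, against control cells and between pools. Between cells its interval overlapped that of Tfcp2l1. It stood at 1.55 and 1.60 in the ESC-2i batches and 2.46 and 3.40 in the ESC-2i pools. In serum it was 0.461 and 0.104 in the ESC-FCS batches, 0.372 and 0.113 in the control batches and 0.223 in the pool. No serum library came near the lowest ESC-2i library. The folds were 5.10 (2.32 to 13.2), 5.85 (2.53 to 16.6) and 13.1 (5.08 to 48.6) in the same order as above. The serum side of these ratios rests on 7, 6 and 4 molecules. Of the 7 in ESC-FCS cells 6 came from batch 1, without which the fold between cells was 15.4, while without batch 2 it was 3.36 and on reads 2.55. Without batch 2 Klf4 had the same fold, and on reads Tfcp2l1 was higher, at 3.40.

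Klf4 and Prdm14 were the factors with the fewest molecules, and their separation is correspondingly less firm. Klf4, a Krüppel-like factor of the LIF pathway, stood at 0.485 to 0.647 in ESC-2i libraries and 0.113 to 0.415 in ESC-FCS libraries. Its folds were 2.05 (0.795 to 6.24) against ESC-FCS cells, 3.03 (1.01 to 12.2) against control cells and 1.44 (0.656 to 3.76) between pools. Prdm14, a PR-domain protein that holds down FGF signalling and DNA methyltransferase genes, stood at 0.631 to 1.29 and at 0.104 to 0.502 in the same libraries. For Prdm14 the folds were 2.11 (0.882 to 5.80), 1.82 (0.790 to 4.68) and 2.57 (1.31 to 5.76). Without library batch 1 the first of these became 6.46 for Prdm14 and 1.37 for Klf4, and without batch 2 it became 1.37 for Prdm14 and 3.36 for Klf4. Although no libraries overlapped, the intervals of Klf4 between cells and between pools, and those of Prdm14 between cells, reached below 1. Counted in reads in place of molecules the fold between cells was 0.774 for Klf4 and 0.997 for Prdm14, so that their direction turned.

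**Figure D2:**
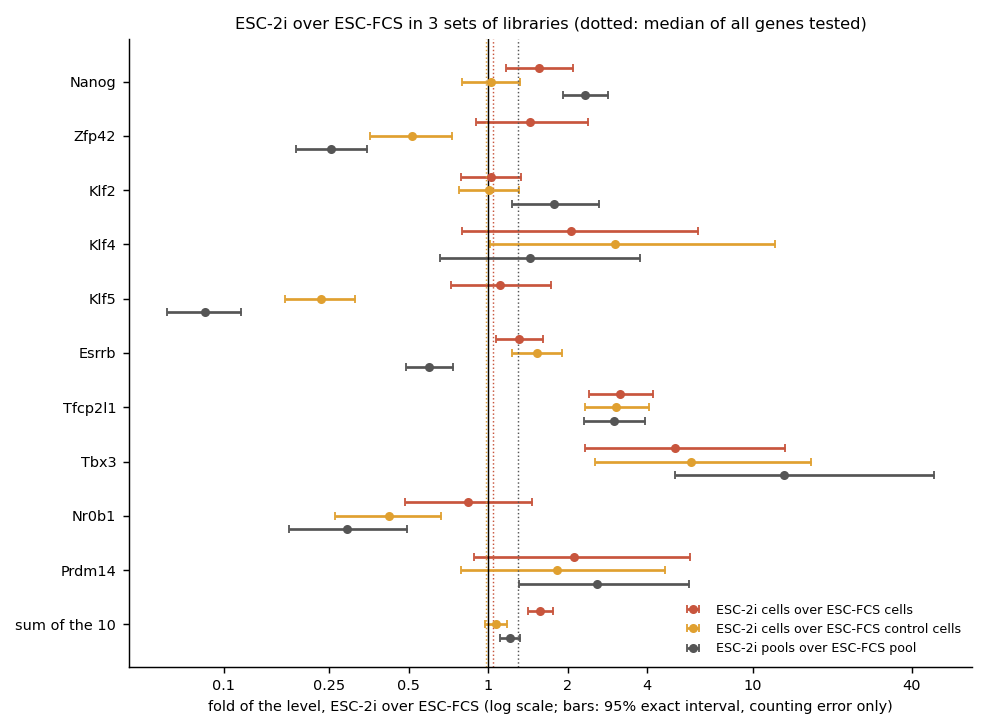
Fold of the level in ESC-2i over ESC-FCS on a log axis, for each factor and for their sum, with exact 95% intervals for counting error. Red compares the cells, yellow takes the control cells for ESC-FCS, grey compares pools, and dotted lines mark the median of all genes tested (1.05, 0.984 and 1.296). Tfcp2l1 and Tbx3 lie above 1 with their whole interval in all 3, Zfp42, Klf5 and Nr0b1 below 1 in 2 of them, and scaling to spike-in molecules would shift the red points by -1.05 on the log2 scale.

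Nanog, Esrrb and Klf2 were well measured in both media and overlapped between them. Nanog, the homeodomain factor at the core of the network, was 4.18 and 5.11 in the ESC-2i batches, 2.99 and 3.01 in the ESC-FCS batches and 5.35 and 3.39 in the control batches. In pools it was 14.7 and 15.2 for ESC-2i and 6.42 for ESC-FCS. The ESC-2i pools thus stood 3.20-fold (2.73 to 3.77) above the ESC-2i cells of the same medium, beside a median of 1.57 over 8495 genes. At least 2-fold higher in pools than in ESC-2i cells were 38.8% of genes, and Nanog alone of the 10 factors. Between media, Nanog gave folds of 1.56 (1.17 to 2.09), 1.02 (0.795 to 1.32) and 2.33 (1.93 to 2.84) for cells, control cells and pools. On reads the fold between cells was 1.00453 for Nanog, 0.956 for Zfp42 and 0.692 for Klf5.

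Esrrb, an orphan nuclear receptor that can stand in for Nanog, was 8.03 and 8.25 in the ESC-2i batches, but 4.86 and 3.56 in the ESC-2i pools. It was 6.22 in both ESC-FCS batches, 5.95 and 4.41 in the control batches and 7.03 in the ESC-FCS pool. Its direction therefore depended on the libraries, from 1.31 (1.07 to 1.61) between cells to 0.597 (0.488 to 0.735) between pools. Esrrb was the only factor with a molecule in all 33 ESC-2i cells, where its level per cell ran from 1.45 through a median of 8.39 to 19.4. Klf2, the Krüppel-like factor tied to MEK inhibition, differed least of all between cells and against control cells. Its folds there were 1.02 (0.789 to 1.33) and 1.01 (0.776 to 1.31), and both comparisons share the ESC-2i cells. By counting error alone, a change beyond 1.33-fold in either medium lies outside both intervals. On spike-in molecules the Klf2 fold between cells was 0.495. Between pools Klf2 was 1.77 (1.23 to 2.63), since the ESC-FCS pool stood at 1.79 against 2.31 and 3.98 in the ESC-2i pools.

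Klf5, Zfp42 and Nr0b1 differed between the sets of serum libraries, and their fold between media depended on which set was used. Klf5, a Krüppel-like factor that acts beside Klf2 and Klf4, was 1.15 and 2.07 in the ESC-FCS batches, close to the 1.49 and 1.91 of the ESC-2i batches. In the control batches it was 7.73 and 6.78 and in the ESC-FCS pool 7.14, while the ESC-2i pools held 0.709 and 0.505. Control over ESC-FCS cells gave 4.76 (3.29 to 7.07), although both were grown in the same medium. ESC-2i over ESC-FCS was 1.11 (0.722 to 1.73) between cells, 0.233 (0.171 to 0.313) against control cells and 0.0848 (0.0612 to 0.116) between pools.

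Zfp42, the zinc finger gene Rex1 used as a marker of the naive state, followed Klf5 in part. It was 1.07 and 1.24 in the ESC-FCS batches, 4.31 and 1.58 in the control batches and 4.19 in the ESC-FCS pool, against 1.55 and 1.75 in the ESC-2i batches and 1.04 and 1.09 in the ESC-2i pools. Control batch 1 and the pool were high, control batch 2 was not. Zfp42 and Klf5 were the factors at least 2-fold higher in control than in ESC-FCS cells, 2 of 7 factors tested beside 15.9% of genes, and none of the 7 was at least 2-fold lower (9.23%). Nr0b1, the orphan receptor Dax1, was 0.921 and 1.35 in the ESC-FCS batches, 2.08 and 2.37 in the control batches and 1.51 in the pool, and its ESC-2i libraries ran from 0.313 to 1.08. Against control cells 3 factors were at least 2-fold higher in ESC-2i (18.6% of genes) and Klf5 and Nr0b1 were at least 2-fold lower (18.5%). Of the 3, Klf4 and Tbx3 reached the limit of 20 molecules only through ESC-2i cells. Between pools Nanog, Tfcp2l1, Tbx3 and Prdm14 were higher (34.5%) and Zfp42, Klf5 and Nr0b1 lower (19.4%). There Tbx3 and Prdm14 reached the limit only through the ESC-2i pools. Control cells and pools also differed from the main cells in spike-in content, and culture, sorting and library cannot be told apart there.

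Neural stem cells had almost none of the 10. A total of 5 molecules were counted in 41 NSC cells, 1 each of Klf2, Klf4, Klf5, Esrrb and Prdm14, and these lay in 4 cells. Nanog, Zfp42, Tfcp2l1, Tbx3 and Nr0b1 had none, which allows a level of up to 0.198 molecules per 10000 (3 molecules). The sum was 0.329 (0.107 to 0.768), so that ESC-FCS cells stood 63.2-fold higher (26.9 to 196) and ESC-2i cells 99.6-fold higher (42.6 to 307). Against this floor Tfcp2l1 was at least 43.7-fold higher in ESC-2i than in NSC cells, and Nanog at least 23.6-fold. For Klf4 in ESC-FCS cells the ratio was only 4.02 (0.488 to 185), on 6 molecules against 1.

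Shares of cells with a molecule follow depth, so cells were also taken at an even depth of 2000 molecules, as the expected share after thinning. At this depth a Tfcp2l1 molecule is expected in 81.4% of 33 ESC-2i cells, 34.2% of 32 ESC-FCS cells and 0% of 33 NSC cells. Without thinning these shares were 97.0%, 63.6% of 33 and 0% of 41 cells. For Tbx3 the thinned shares were 23.5%, 7.01% and 0%, and without thinning 66.7%, 15.2% and 0%. Nanog gave 59.2%, 42.3% and 0% thinned, and 97.0%, 63.6% and 0% as counted. Zfp42 gave 28.2% and 14.0% thinned, with 38.1% in control cells, and 78.8%, 30.3% and 59.5% as counted. Klf2, at 55.2% and 56.3%, stood at like shares in both media, beside 1.14% in NSC cells. The median over the 10 factors was 26.3% for ESC-2i cells, 23.5% for ESC-FCS cells and 38.3% for control cells, so that the order of the media depended on the serum cells used.

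**Figure D3:**
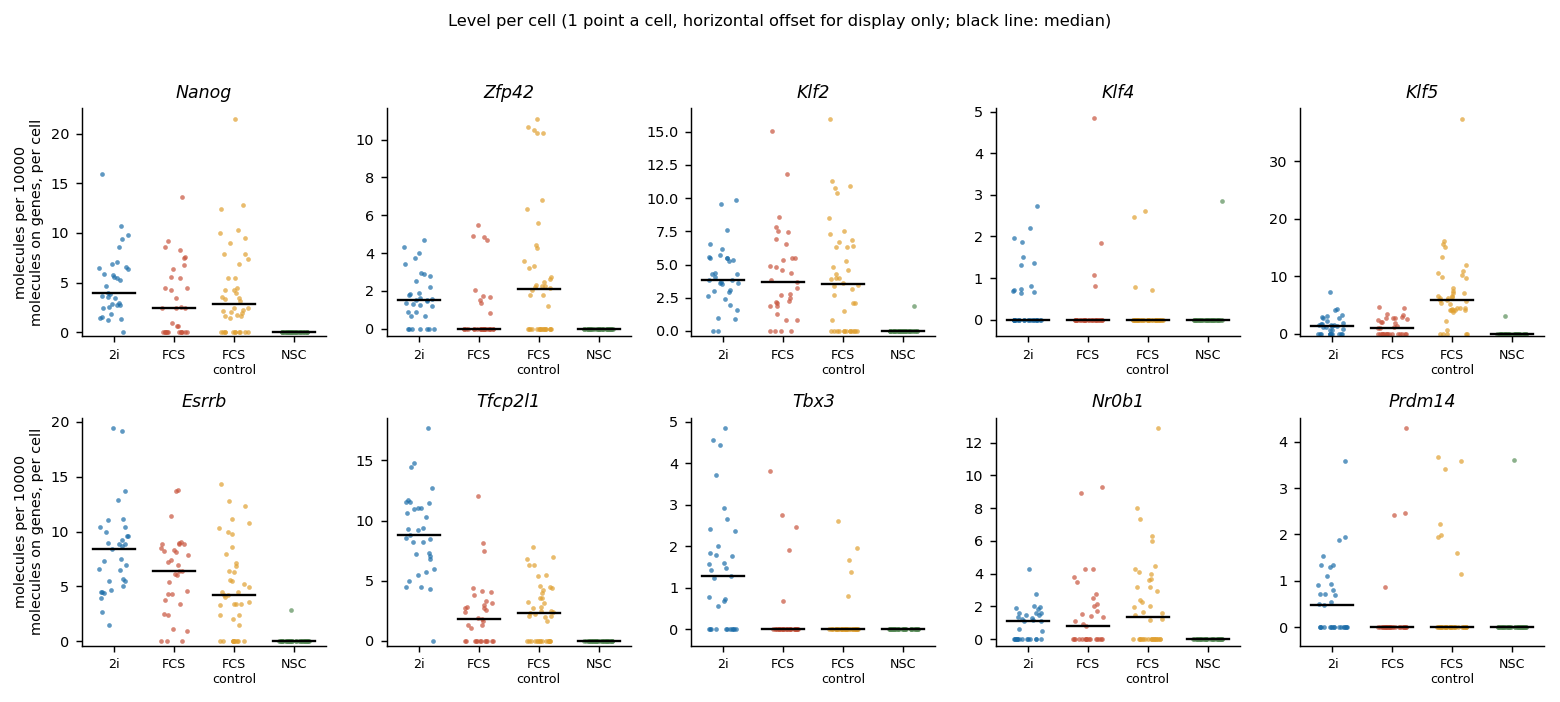
Level of each factor in every cell used, in molecules per 10000 molecules on genes of that cell, for ESC-2i (33 cells), ESC-FCS (33), ESC-FCS control (42) and NSC (41). Each point is 1 cell and the black line is the median. Tfcp2l1 has a median of 8.84 in ESC-2i and 1.86 in ESC-FCS, and the medians of Zfp42 and Tbx3 are 0 in ESC-FCS.

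Variation between cells of 1 population was tested against technical noise. The squared coefficient of variation (CV2) of each gene with a normalized mean above 0.5 was set against the curve fitted on spike-in transcripts plus a biological CV2 of 0.25, with Benjamini-Hochberg adjustment over all genes tested and a limit of 0.1, by the test of Brennecke and colleagues. In ESC-2i none of the 10 factors was called, beside 0.608% of 3616 genes. An unadjusted p under 0.05 was reached by 1 factor, beside 93 of 3616 genes. That one was Klf5, with a CV2 of 1.62 against 0.772 technical (p = 0.0186, adjusted p = 1). In ESC-FCS none of 7 tested factors was called, beside 3.36% of 2026 genes. Again 1 had an unadjusted p under 0.05, beside 159 of 2026 genes. Nr0b1 had a CV2 of 2.67 there against 1.51 technical (p = 0.0289, adjusted p = 0.463). Nanog had 1.36 against 0.778 (adjusted p = 0.906), and Zfp42 had 3.70 against 2.73 (p = 0.159). Klf4, Tbx3 and Prdm14 fell below the limit on the mean in ESC-FCS and were not tested. The paper, by the same kind of test, reports that Nanog and Zfp42 appeared variably expressed in ESC-FCS but not in ESC-2i cells. In ESC-FCS cells Nanog was called here only without a biological margin, and Zfp42 under none of the settings tried. The source of this difference from the paper was not tested.

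Control cells gave the only call. Klf5 had a CV2 of 1.68 against 0.430 technical (adjusted p = 2.13e-05), 1 of 7 factors beside 6.15% of 1690 genes. Its molecules per cell ran from 0 through a median of 3 to 19, its level per cell reached 37.3 molecules per 10000, and the curve rested on 7 spike-in species. The dispersion index, the variance over that of Poisson counts at the depth of each cell, was 2.28 for Klf5 in control cells, beside a median of 1.15 over genes with at least 20 molecules. Nanog had an index of 2.62 in ESC-FCS and 2.24 in ESC-2i, where the medians were 1.15 and 1.13. At a given CV2 this index rises with the level, and the medians are not matched for level. Esrrb in ESC-2i had an index of 1.88, with a CV2 of 0.240 against 0.165 technical, and was not called. Without a biological margin, 2 factors were called in ESC-2i (Nanog and Klf5), beside 115 of 3616 genes. In ESC-FCS 2 were called (Nanog and Nr0b1), beside 193 of 2026 genes.

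**Figure D4:**
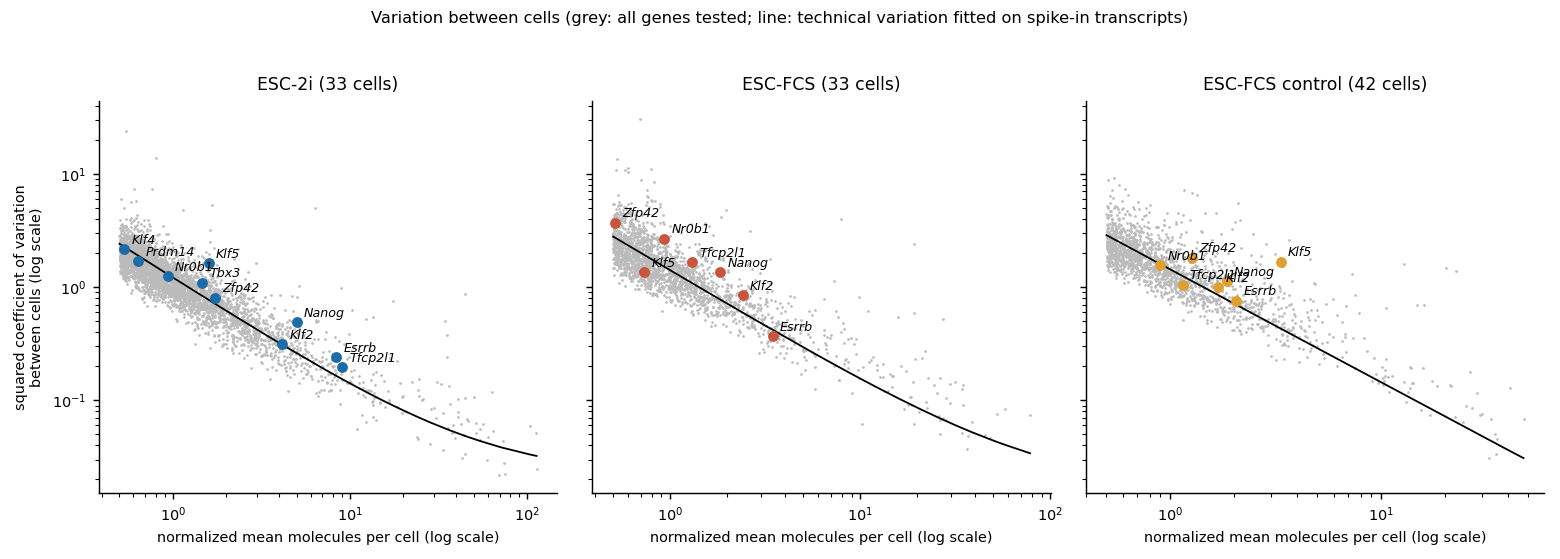
Squared coefficient of variation between cells against normalized mean molecules per cell, both on log axes, for ESC-2i, ESC-FCS and ESC-FCS control cells. Grey points are all genes tested, the line is the technical variation fitted on spike-in transcripts, and coloured points are the factors that could be tested. Klf5 in control cells stands highest above the line (1.68 against 0.430).

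Cells without a molecule show the same measurements in another way. In ESC-FCS, 23 of 33 cells had no Zfp42 molecule where 16.5 were expected from their depth, and 12 had no Nanog molecule where 7.18 were expected. In ESC-2i these were 7 against 6.37 and 1 against 0.594, but 11 cells each lacked Klf5 and Tbx3, where 6.07 and 6.86 were expected. Of the 26 Zfp42 molecules in ESC-FCS, 50.0% came from 3 cells. Tfcp2l1 was absent in 12 ESC-FCS cells against 7.96 expected, and Esrrb in 3 against 2.54. Not every factor exceeded its expected count. Klf2 was absent in 4 ESC-FCS cells against 4.70, Nr0b1 in 16 against 16.9, and Prdm14 in 16 ESC-2i cells against 16.5. In control cells Zfp42 was absent in 17 of 42 cells against 11.0 expected, and Klf5 in 5 against 3.35. How such counts run over all genes was not tested.

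Co-expression between single cells was described by Pearson's r of Poisson residuals, which take out the depth of each cell, for factors with at least 20 molecules. Cells of a population share a culture and library batches, and no p was computed. In ESC-2i the median over 45 pairs was 0.0013, with 23 above 0 and a range of -0.289 to 0.466. In ESC-FCS the median over 21 pairs was 0.116, with 17 above 0, and in control cells 0.133 with 15 of 21 above 0. Pairs of all genes with as many molecules had medians of -0.0039, -0.0057 and -0.0071, with 49.2%, 48.8% and 48.3% above 0. The highest pair in ESC-FCS was Klf5 with Tfcp2l1 (r = 0.596 over 33 cells, 0.659 and 0.553 within the batches), but in control cells it was 0.133. Nanog with Zfp42 was highest in control cells (0.529 over 42 cells, 0.592 and 0.307 within the batches) and -0.0774 in ESC-FCS cells. Pairs that stood above 0.2 in both sets of serum cells were Esrrb with Tfcp2l1 (0.236 and 0.392) and Esrrb with Klf2 (0.325 and 0.2002). Within batch 2 of the control cells these were 0.0644 and 0.0597. In ESC-2i the highest was Klf4 with Tbx3 (0.466 over 33 cells, 0.526 and 0.352 within the batches), on 20 and 58 molecules.

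As a sum per cell, the factors were set beside lists of related genes. The residual of the sum and that of 23 other naive network genes gave r = 0.214 over ESC-2i cells, 0.439 over ESC-FCS cells and 0.593 over control cells. Within the ESC-FCS batches this was 0.457 and 0.407. With 15 formative and primed genes, which mark the exit from the naive state, r was -0.374 in ESC-FCS (-0.378 and -0.417 within the batches), -0.153 in control cells and 0.10005 in ESC-2i. Its members differed in ESC-FCS. Dnmt3b, a de novo DNA methyltransferase, gave -0.509 on 49 molecules, Lefty1, a Nodal antagonist, -0.389 on 107, Dnmt3a -0.218 on 27, Dnmt3l -0.0678 on 76 and Etv5 0.152 on 74. In control cells Dnmt3b gave -0.153 and Lefty1 0.0293, on 26 and 30 molecules. The dispersion index of the sum itself was 3.38 for ESC-FCS, 2.85 for control cells and 1.92 for ESC-2i. Sums of other genes at a like level were not tested.

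Other genes of the network were mixed in direction. Of the 23 other naive network genes, 20 had enough molecules. Of these, 8 lay above 1 in ESC-2i over ESC-FCS cells, beside 52.9% of all genes. Of the 20, 1 was at least 2-fold higher (14.5% of all genes) and 2 at least 2-fold lower (8.17%), with a median fold of 0.847 beside 1.05 for all genes. Against control cells 1 of 20 was higher (18.6%) and 6 were lower (18.5%), with a median of 0.670 beside 0.984. Between pools 7 of 21 were higher (34.5%) and 6 lower (19.4%), with a median of 1.21 beside 1.296, so that the share of higher genes was near that of all genes. Sall4, a zinc finger factor, was 0.903 (0.690 to 1.19), Jarid2, a subunit of Polycomb complexes, 0.630 (0.459 to 0.865), Rif1 0.791 (0.562 to 1.12), and Fbxo15, an F-box gene of embryonic stem cells, 1.51 (1.03 to 2.26). The 15 formative and primed genes had a summed level of 6.00 for ESC-2i cells, 16.5 for ESC-FCS cells and 11.1 for control cells. Only 5 had enough molecules between ESC-2i and ESC-FCS cells, and 4 of these were at least 2-fold lower (8.17% of all genes), but Lefty1 and Dnmt3a reached the limit only through ESC-FCS cells. Between pools 3 of 8 were lower (19.4%), and the median of 1.29 was that of all genes (1.296). Dnmt3l was 0.194 (0.117 to 0.311) and Dnmt3b 0.264 (0.150 to 0.448), but between pools Dnmt3b was 1.66 (1.03 to 2.83). Lefty1 had 0 molecules in ESC-2i cells and, against a floor of 3 molecules, was at least 58.0-fold lower there, though the ESC-2i pools held 71, while Etv5, an ETS factor, was 1.24 (0.932 to 1.66). Sparc, the only primitive endoderm marker with enough molecules, was 4.77-fold (2.604 to 9.56) higher in ESC-2i cells, its part in the factors' values was not tested, and Gata6, Sox17, Sox7 and Foxa2 were at 0 in all embryonic stem cell libraries. Markers of 2-cell-like cells were at 0 in all libraries but the ESC-2i pools, which held 75 molecules of them, and their part in the pool values was not tested.

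Over the 11 libraries, the genes whose level was most like the sum of the factors were Acot9, a mitochondrial acyl-CoA thioesterase (Pearson r of log2 levels 0.994), Tdh, the threonine dehydrogenase of mouse embryonic stem cells (0.993), Nid2, a basement membrane protein (0.990), Mov10, an RNA helicase (0.987), and Trim6, a tripartite motif protein (0.987). Each was at 0 in both NSC libraries. In all, 133 of 4544 genes compared had an r above 0.9. The points share the contrast between embryonic and neural libraries. Tdh ran from 9.24 to 15.5 molecules per 10000 in ESC-2i libraries and from 6.29 to 10.4 in ESC-FCS libraries.

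Zfp42 was the factor with the lowest share of molecules at its most used site. Its proximal site, printed above, is within 5 nt of the last annotated end at its most used position over all libraries. In ESC-2i and ESC-FCS cells its molecules lay at position 43295079, inside the printed window. The hexamer in capitals begins past that position, while an earlier AATAAA, in lower case in the window, lies before it. A downstream site lies at position 43294215 on the minus strand of chromosome 8, 848 nt past the last annotated end. GENCODE M21 holds no other gene within 60000 nt of it. The deposited class of these molecules is downstream of the gene, and no sequence was used here for this position. In ESC-2i cells 20 of 61 Zfp42 molecules (32.8%, exact Clopper-Pearson interval 21.3 to 46.0) ended at the downstream site, and in the ESC-2i pools 73 of 104 (70.2%, 60.4 to 78.8). In serum this was 4 of 26 in ESC-FCS cells (15.4%, 4.36 to 34.9), 6 of 72 in control cells (8.33%, 3.12 to 17.3) and 4 of 75 in the pool (5.33%, 1.47 to 13.1).

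By library the downstream share was 29.6% and 35.3% in the ESC-2i batches and 78.0% and 63.0% in the ESC-2i pools. It was 14.3% and 16.7% in the ESC-FCS batches, 5.17% and 21.4% in the control batches and 5.33% in the pool. Every ESC-2i library was above every serum library, but the serum batches rest on 2 of 14, 2 of 12, 3 of 58 and 3 of 14 molecules. The interval of ESC-2i batch 1 (13.8 to 50.2) overlaps that of control batch 2 (4.66 to 50.8). How often sites of other genes separate the libraries in this way was not tested. The interval of ESC-2i cells overlaps that of ESC-FCS cells but not that of control cells. The pools differ without overlap of their intervals, both between media and between ESC-2i pools and ESC-2i cells. Among ESC-2i cells 14 of 33 held a downstream molecule and 15 a proximal one, with both in 5 cells. The proximal site held 54.1% (40.8 to 66.9) of molecules in ESC-2i cells and 76.9% (56.4 to 91.0) in ESC-FCS cells.

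**Figure D5:**
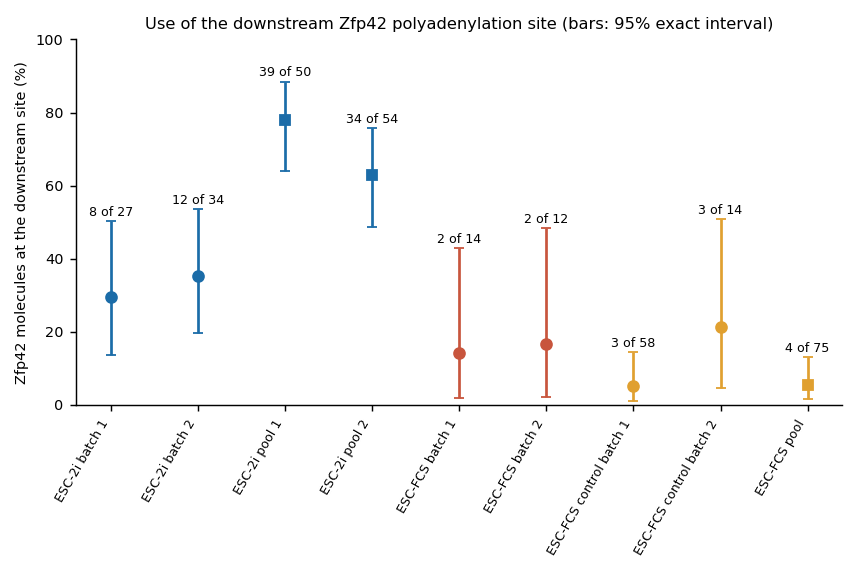
Percent of Zfp42 molecules at the site 848 nt past the annotated end, by library, with exact 95% intervals and the molecules behind each value. Circles are single cells of a batch summed and squares are pools, blue is ESC-2i, red ESC-FCS and yellow the ESC-FCS control cells and pool. ESC-2i libraries lie between 29.6% and 78.0% and serum libraries between 5.17% and 21.4%.

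Shares at sites of the other factors were as follows. Tfcp2l1 had a second site 72 nt before its annotated end with 5.03% of molecules in ESC-2i cells, 3.23% in ESC-FCS cells and 5.87% in ESC-2i pools. Klf2 used the site at its annotated end in 18 of 308 molecules of the ESC-2i pools (5.84%, 3.50 to 9.08), in 0 of 158 in ESC-2i cells and in 1 of 95 in ESC-FCS cells. Tbx3 had 67.2% (53.7 to 79.0) of its ESC-2i molecules and 88.8% (84.6 to 92.2) of its pool molecules at the printed site. A further 15.5% (7.35 to 27.4) of its ESC-2i molecules ended 7 nt before the last annotated end, against 1.05% (0.217 to 3.03) in the ESC-2i pools. Prdm14 used a site 273 nt past its annotated end for 12.5% of molecules in ESC-2i cells and 11.9% in ESC-2i pools, and for 4 of 9 molecules in the ESC-FCS pool (44.4%, 13.7 to 78.8). Nanog had 17 and 10 of 1457 molecules in the ESC-2i pools at positions 13252 nt and 13360 nt past its annotated end. The deposited processing counts sites far downstream to the gene before them.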

How the data were processed

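Counts of molecules and reads per polyadenylation site and library were deposited by the authors, who aligned reads to GRCm38 with GSNAP, removed non-unique and likely internally primed alignments, merged molecular barcodes and collapsed nearby positions, with HTSeq and custom scripts (R 3.0.2 per the labels). The deposited counts are not normalized. In the counts per library the header names of site class and distance are exchanged, and columns were read by content. Sites of the main cells and of the control cells and pools were defined separately, so sites within 25 nt were joined. Gene counts are sums over sites without antisense sites, and equal the deposited table of genes in all but 4 of 2111752 entries, none in the factors.

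Levels, exact Poisson intervals and conditional binomial intervals of folds (95%) were computed in Python 3.11.15 with scipy 1.17.1. Folds across genes needed 20 molecules in both groups together, and a gene counted as higher or lower from 2-fold. The variation test followed Brennecke and colleagues and was tested on simulated data. Factors and gene lists were chosen with earlier results of these data known. Named genes were the 10 factors, the 5 genes most alike and up to 4 genes a list by molecules. Lists were matched by symbol, for 19321 of 19736 genes. Alternatives were the cells, scaling, filters, batches, sites and settings of the variation test given in the closing section.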

Additional observations from a re-analysis of the deposited data

How the results depend on the processing

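The summed fold of ESC-2i over ESC-FCS, 1.57, lay inside its interval under 7 of 11 alternatives. It was 0.762 on spike-in molecules, where the median of all genes also moved, 1.39 on reads, and, in alternatives chosen after seeing the data, 1.07 against control cells and 1.21 between pools. The count of factors at least 2-fold higher, 4, became 1 on spike-in molecules and 2 on reads. It was also 2 without library batch 1, without library batch 2 and with at least 50 molecules. In these last 3 settings 8 of 10 factors were tested. On reads the share of all genes at least 2-fold higher was about that of the factors. Under the other settings named here it was below that of the factors. The count at least 2-fold lower, 0, became 2 on spike-in molecules, 2 against control cells (18.5% of all genes) and 3 between pools (19.4%). On spike-in molecules the median fold of all genes was itself 0.506. There a larger share of all genes than of the factors was at least 2-fold lower. Klf4 reversed on spike-in molecules (0.993) and on reads (0.774), and Prdm14 on reads (0.997). Tfcp2l1 kept a fold between 1.53 and 3.87 and Tbx3 between 2.47 and 15.4 (without library batch 1) over all 11. Without a biological margin, calls of variation rose from 0 to 2 in ESC-2i and in ESC-FCS, beside 115 of 3616 and 193 of 2026 genes. With the margin, the control cells gave 1, beside 104 of 1690 genes. The share at the proximal Zfp42 site in ESC-2i was 35.8% of reads. Expected shares of cells with a molecule, as medians over factors, were 51.2% for ESC-2i cells, 47.0% for ESC-FCS cells and 71.5% for control cells at 5000 molecules. Another 60 values of a summary result under an alternative stayed within the interval or SD of the reported value, or within 1.5 times for a count. Among these, the count at least 2-fold higher became 3 with median-ratio size factors (13.3% of all genes) and against control cells (18.6%). The count with no overlap of libraries became 5 without pools. That rule spans fewer libraries, so the 6.22% of genes met over all libraries is not its share. The median pair correlation in ESC-FCS, also among these, was 0.231 and 0.0517 within the batches. The causes were not tested. No paired analysis was possible because the labels number wells and batches, which join no cells or cultures across populations. Counts per cell are few, with a median of 1 molecule or less for 5 of the factors in ESC-2i cells, and differences between populations rest on 1 sample each.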
